A study of Mus musculus with 10 samples.

Results

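The circular RNAs (circRNAs) of the mature mouse retina at postnatal day 30 (P30) were compared with those of the retina at postnatal day 7 (P7). A circRNA was included when its estimated count was above 0 in at least 1 of the 2 P30 and 2 P7 libraries, which held for 4771 of the 9029 circRNAs in the deposited table. All 4 libraries were made from retinae of C57BL/6 mice, from total RNA depleted of ribosomal RNA, and no treatment or mutant allele separated the ages. The labels number the libraries as P30 replicates 2 and 3 and P7 replicates 1 and 2 and do not say which animals they came from. The study describes 3 biological replicates per time point for its gene-level RNA-seq. It does not describe the circRNA counts, which cover 2 libraries an age. The spread behind each p-value is the one among the libraries of an age. The study followed the retinal transcriptome through development, and its libraries of E18.5, P1 and P14 retinae, 2 at each age, were used here for the estimate of the spread and as further ages. The table holds only circRNAs and pairs none of them with a gene, so the tissue label could not be checked against marker genes and the circRNAs are given by position or database ID.

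A circRNA arises by back-splicing, in which a splice donor is joined to an acceptor that lies upstream, and the resulting ring has neither a cap nor a poly(A) tail. Rings are resistant to exonucleases, and circRNAs are abundant in neurons, where many accumulate as the cells mature. In the mouse retina at P7 the birth of neurons is nearly over and the eyes are still closed, whereas at P30 the photoreceptor outer segments and the synaptic layers are mature.

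Of the 4771 circRNAs, 719 carried a database ID and 4052 were named by chromosome, start, end and strand in the mm9 build. The distance between the back-splice ends is called the span. It includes introns and is therefore not the length of the ring, and it ran between 143 and 99946 bp. The smallest value above 0 in the table was 2, so a value of 0 means that the circRNA was not listed in that library. Total counts were 28104.5 and 28658 in the P30 libraries, against 9611 and 7426 in the P7 libraries, a ratio of 3.33 between the means. The number of all reads per library is not in the table, so a deeper library and a larger amount of circRNA cannot be told apart.

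More circRNAs were listed at P30. The P30 libraries held 2800 and 2784 circRNAs, against 1212 and 996 in the P7 libraries, a ratio of 2.53. With all 4 libraries brought to the total of the smallest one and a minimum of 2 counts, 1283 and 1301 remained at P30, against 1110 and 996 at P7, which lowered the ratio to 1.23. At a minimum of 10 counts, without equal totals, 557 and 593 were listed at P30, against 213 and 154 at P7, a ratio of 3.13. The P30 libraries exceeded both P7 libraries in each of these counts, although with 2 libraries against 2 an exact two-sided permutation test of a single value cannot go below p = 0.333, and none was run.

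The lists of both ages overlapped in part. Of all included circRNAs, 3083 were listed at P30 alone, 611 at P7 alone and 1077 at both ages, 384 of them in all 4 libraries. Shared circRNAs made up 25.9% of those listed at P30 and 63.8% of those listed at P7. Most circRNAs listed at 1 age alone had low counts, with a median highest count of 4 for those at P30 and of 3 for those at P7, against 9.5 for circRNAs of both ages. Replicates shared few of them: 22.9% of the circRNAs listed at P30 alone were in both P30 libraries, and 8.35% of those listed at P7 alone were in both P7 libraries.

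Some circRNAs were well counted at P30 and not listed at P7. In raw counts, 88 circRNAs had at least 10 counts in both P30 libraries and 0 in both P7 libraries, against 1 circRNA with at least 10 counts in both P7 libraries and 0 in both P30 libraries. This limit is not at equal depth. With the limit at P30 raised by the ratio of the totals to 33.3 counts, 7 circRNAs remained, against the same 1 at P7. Of the 88, 72 were also listed at P14, 32 at E18.5 or P1, and 11 at no other age. The 69 of them that are named by position had a median span of 16240 bp. Only 11 of the 88 passed the low-count filter of the test, since its limit corresponded to 29.9 and 30.5 counts in the P30 libraries, against 10.3 and 7.95 counts in the P7 libraries.

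Counts were spread over more circRNAs in the P30 libraries. The 10 most abundant circRNAs of each library took 14.1% and 13.6% of the counts at P30, against 17.5% and 16.9% at P7. Database IDs took 41.2% and 40.6% of the counts at P30, against 53.4% and 53.6% at P7, and made up 18.8% and 18.5% of the listed circRNAs at P30, against 29.5% and 31% at P7. Both shares were lower in both P30 libraries than in either P7 library. None of the shares in this paragraph was taken at equal totals, and rare circRNAs drop out sooner from the smaller P7 libraries. Depth and age cannot be told apart here. The number of listed database IDs was higher at P30, with 526 and 514, against 358 and 309 at P7.

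Differences in single circRNAs were tested with edgeR on counts scaled by TMM, a factor that aligns the bulk of the tested circRNAs between libraries, with p adjusted by Benjamini-Hochberg over all circRNAs kept and a threshold of 0.05. The filter kept 327 of the 4771 circRNAs, which held 49.2% and 49% of the counts at P30, against 60.8% and 62.3% at P7. Of these, 75 (22.9%) were called, 52 (15.9%) higher and 23 (7.03%) lower at P30, and 105 had an unadjusted p under 0.05. The 4444 circRNAs not tested were mostly rare, with a median highest count of 4, and 69.1% of them were listed at P30 alone. Among the 52 higher circRNAs, 41 were listed at P7 and rose by a log2 fold change of 0.98 to 4.75 (median 2.41), while 11 stood at 0 in both P7 libraries. Among the 23 lower ones, 18 were listed at P30, with log2 fold changes of -4.06 to -0.43 (median -1.71), while 5 stood at 0 in both P30 libraries. The median over all tested circRNAs was 0.27, with 184 above 0 and 143 below. Without a test, both P30 libraries were above both P7 libraries in TMM-scaled CPM for 125 (38.2%) and below them for 91 (27.8%) of the 327.

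The balance of higher and lower calls depended on the scaling. Relative log expression factors gave 50 higher and 23 lower calls, the totals of the tested circRNAs 31 and 35, and the totals of all listed counts 20 and 40, as the median log2 fold change moved to 0.23, -0.22 and -0.54. All 23 lower calls and 20 of the 52 higher calls were made under all 4 scalings, and none of the 75 changed its direction. The number of calls also rested on every library. It was 19 without P30 replicate 2, 15 without P30 replicate 3, 37 without P7 replicate 1 and 26 without P7 replicate 2.

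**Figure D1:**
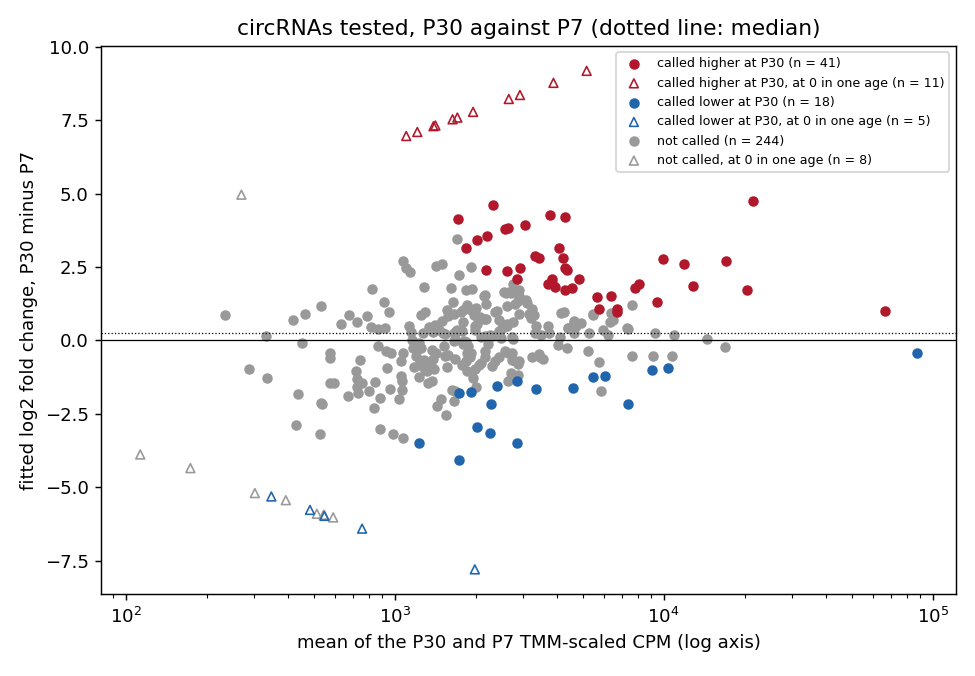
Fitted log2 fold change of P30 over P7 (vertical axis) against the mean TMM-scaled CPM of both ages (horizontal log axis) for the 327 tested circRNAs, with the median of 0.27 as a dotted line. Red marks the 52 circRNAs called higher and blue the 23 called lower at P30, and open triangles mark the 24 circRNAs at 0 in both libraries of an age, whose fitted values depend on the fit and are no bounds on a fold.

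The largest fitted rises were of circRNAs that no P7 library listed. Their rank depends on the fit, so they need not exceed the rises of circRNAs listed at P7. The 10 largest fitted rises with a mean of at least 10 counts over the 4 libraries all fell in this group, and for them the counts are given without a fold. The circRNA at chr6:67027242-67066761 on the plus strand, spanning 39520 bp, had 120.5 and 110 counts at P30 and 0 in both P7 libraries (adjusted p = 0.000168). At chr15:68825482-68879891 on the plus strand, a circRNA spanning 54410 bp had 79 and 93.5 counts at P30 and 0 in both P7 libraries (adjusted p = 0.00387). The P30 libraries were close to each other for both, and no P7 library reached them. The chr6 circRNA already had 32.5 and 28.5 counts at P14, whereas the chr15 circRNA had 0 in both P14 libraries and 8.5 in P1 replicate 1.

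Another circRNA of chromosome 15, at chr15:39398489-39418331 on the plus strand with a span of 19843 bp, had 47.5 and 70 counts at P30 and 0 in both P7 libraries (adjusted p = 0.00128). The circRNA at chr2:25821183-25822468 on the minus strand, the shortest of the 10 with 1286 bp, had 77.5 and 51.5 counts at P30 and 0 in both P7 libraries (adjusted p = 0.014). Its absence at P7 was not shared by the younger retina, since it had 13.5 counts in the unnumbered E18.5 library and 23.5 in P1 replicate 1, with 0 in E18.5 replicate 1 and P1 replicate 2. At P14 it had 38.5 and 52 counts.

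The other 6 circRNAs of this group had between 23.5 and 43.5 counts in each P30 library and 0 in both P7 libraries. They were at chr1:180253265-180266289 on the minus strand (43.5 and 43 counts at P30, adjusted p = 0.0211), chr10:53394372-53409954 on the minus strand (33.5 and 41.5, adjusted p = 0.00817), chr3:100436427-100460197 on the minus strand (32 and 29.5, adjusted p = 0.00592) and chr14:15611340-15623678 on the plus strand (29.5 and 33, adjusted p = 0.0487). Another lay on chromosome 18 with a span of 24682 bp and had 37.5 and 35 counts at P30 (adjusted p = 0.0192). The last, at chr10:25198815-25208899 on the plus strand, had 30.5 and 23.5 counts at P30 (adjusted p = 0.013). Of these 10 circRNAs, 5 were at 0 in every library of E18.5, P1 and P7, namely those at chr6:67027242, chr15:39398489, chr10:25198815, chr1:180253265 and the one on chromosome 18. No other tested circRNA had this pattern, but the filter limits this number. Only 11 of the 88 circRNAs with at least 10 counts in both P30 libraries and 0 at P7 were tested. Of the 88, 32 were listed at E18.5 or P1, so most were at 0 at these ages too.

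Among the 10 calls in this group, those at chr6:67027242 and chr15:39398489 were kept whichever of the 4 libraries was left out. Of the other 8, all were lost without P30 replicate 2 (adjusted p between 0.0715 and 0.274) and without P30 replicate 3 (between 0.087 and 0.275), and 6 were lost without P7 replicate 1 (between 0.0514 and 0.17) and without P7 replicate 2 (between 0.0601 and 0.199).

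**Figure D2:**
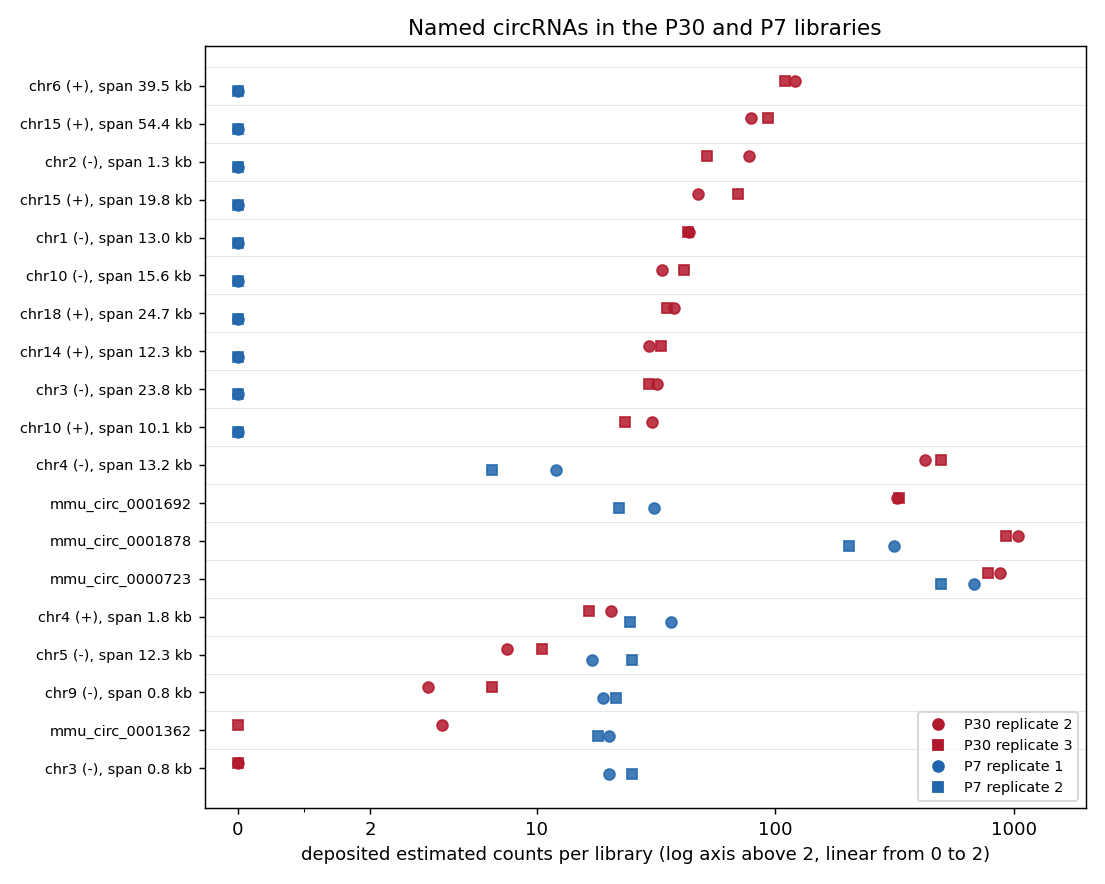
Deposited estimated counts (horizontal axis, logarithmic above 2 and linear from 0 to 2) of 19 circRNAs chosen by size of change or by abundance, ordered by fitted log2 fold change, in P30 replicates 2 and 3 (red) and P7 replicates 1 and 2 (blue). The upper 10 lie at 0 in both P7 libraries and between 23.5 and 120.5 at P30, and the lowest has 0 in both P30 libraries, against 20 and 25 at P7.

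Rises of circRNAs listed at P7 are given with their folds. The circRNA at chr4:102732223-102745448 on the minus strand, spanning 13226 bp, had 425.5 and 495 counts at P30, against 12 and 6.5 at P7. It reached 41460 ± 4636 CPM at P30, against 1498 ± 446.5 CPM at P7 (SD, n = 2 each), where CPM is the TMM-scaled count per 1000000 counts of the tested circRNAs. Its log2 fold change was 4.75 with an SE of 0.47 (adjusted p = 3.25e-05), the largest among called circRNAs that were listed at P7. It was called under all 22 other settings, with log2 fold changes between 3.94 and 5.11. At P14 it stood between the ages with 12410 ± 3819 CPM (SD, n = 2).

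mmu_circ_0001692 had 324 and 331.5 counts at P30, against 31 and 22 at P7. The log2 fold change was 2.70 with an SE of 0.28 (adjusted p = 3.47e-05), with 29520 ± 682.9 CPM at P30 and 4510 ± 247.9 CPM at P7 (SD, n = 2 each). The groups lay far apart, and its direction and its call were kept whichever of the 4 libraries was left out.

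mmu_circ_0001878 had 1040 and 932.5 counts at P30, against 314 and 203.5 at P7, and was the most counted circRNA of both P30 libraries. In CPM it stood at 88730 ± 6352 at P30 and 43830 ± 5136 at P7 (SD, n = 2 each), and the log2 fold change was 1.02 with an SE of 0.12 (adjusted p = 7.35e-05). The groups did not overlap in raw counts or in CPM. With the totals of all listed counts as the scale the log2 fold change was 0.20 and the call was lost (adjusted p = 0.272). Its highest mean was not at P30 but at P14, with 126100 ± 3271 CPM (SD, n = 2).

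Including the chr4 circRNA, 7 position-named rises that were listed at P7 had an adjusted p under 0.01, a limit chosen after the values were seen. At chr2:14902933-14906066 on the plus strand, a circRNA spanning 3134 bp had 99 and 82 counts at P30, against 3 and 2 at P7 (log2 fold change 4.20, SE 0.67, adjusted p = 0.00128). The circRNA at chr15:72830402-72862073 on the minus strand had 55 and 45 counts at P30, against 2.5 and 0 at P7 (log2 fold change 4.60, SE 0.87, adjusted p = 0.00285). Its fold rests on the 2.5 counts of a single P7 library, with a log2 fold change of 8.03 without P7 replicate 1 and 3.71 without P7 replicate 2. In both, the lowest P30 library was far above the highest P7 library, and the chr2 circRNA was at 0 in all 4 libraries of E18.5 and P1 and at 20.5 and 51 counts at P14.

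At chr14:22445941-22483970 on the plus strand, a circRNA spanning 38030 bp had 67.5 and 97 counts at P30, against 5.5 and 6.5 at P7 (log2 fold change 2.82, SE 0.58, adjusted p = 0.00616). The circRNA at chrX:90865844-90871951 on the minus strand had 73 and 89 counts at P30, against 7 and 8 at P7 (log2 fold change 2.47, SE 0.51, adjusted p = 0.00517). The other 2 of the 7, at chr10:25161379-25163760 and chr5:151406752-151411015, belong to loci described with the hubs. The chr4, chr2, chr10 and chr5 circRNAs kept their calls whichever of the 4 libraries was left out. The chr15 call was lost without P30 replicate 2 (adjusted p = 0.0528), the chrX call without P30 replicate 3 (0.0996) and without P7 replicate 1 (0.0793), and the chr14 call whichever of the 4 was left out (0.0544 without P30 replicate 2, 0.111 without P30 replicate 3, 0.073 without P7 replicate 1 and 0.0626 without P7 replicate 2).

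Falls were fewer than rises under TMM scaling and relative log expression factors, and more numerous with totals as the scale. The circRNA at chr3:26032164-26032974 on the minus strand, spanning 811 bp, had 0 counts in both P30 libraries, against 20 and 25 at P7 (adjusted p = 0.00128). It is the circRNA noted above with at least 10 counts in both P7 libraries and none at P30. At P14 it had 4 and 0 counts, at P1 24 and 15.5, and at E18.5 12 and 18.5. The P14 libraries thus lay below every library of P7 and younger retinae.

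mmu_circ_0001362 had 4 and 0 counts at P30, against 20 and 18 at P7 (log2 fold change -4.06, SE 0.97, adjusted p = 0.0108). The log2 fold change was -7.51 without P30 replicate 2, which holds the 4 counts, and -3.21 without P30 replicate 3. At chr9:49314958-49315758 on the minus strand, a circRNA spanning 801 bp had 3.5 and 6.5 counts at P30, against 19 and 21.5 at P7 (log2 fold change -2.94, SE 0.70, adjusted p = 0.0108). Although the P30 libraries held about 3.33 times the total counts, both circRNAs had fewer counts in either P30 library than in either P7 library.

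The circRNA at chr5:23485306-23497655 on the minus strand, spanning 12350 bp, had 7.5 and 10.5 counts at P30, against 17 and 25 at P7 (log2 fold change -2.17, SE 0.58, adjusted p = 0.0182). At chr4:8678471-8680295 on the plus strand, a circRNA spanning 1825 bp had 20.5 and 16.5 counts at P30, against 36.5 and 24.5 at P7 (log2 fold change -1.64, SE 0.39, adjusted p = 0.0108). A longer circRNA with the same start, at chr4:8678471-8712910, had 36.5 counts in both P30 libraries, against 52.5 and 37.5 at P7 (log2 fold change -1.24, SE 0.30, adjusted p = 0.0109). The raw counts of the last one were close, at 36.5 in the P30 libraries and 37.5 in P7 replicate 2, and it fell relative to the other tested circRNAs.

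mmu_circ_0000723, the most counted circRNA of both P7 libraries, had 876.5 and 778 counts at P30, against 680 and 494 at P7. Its raw counts were higher at P30, yet its level relative to the other tested circRNAs was lower, with 74420 ± 5799 CPM at P30 and 100100 ± 3847 CPM at P7 (SD, n = 2 each). The log2 fold change was -0.43 with an SE of 0.08 (adjusted p = 0.00378), the smallest change of any call. It was lower under each of the 4 scalings. Of the 8 falls given by name, counting 1 of 579 bp on chromosome 3 described with the spans, only that at chr3:26032164 kept its call whichever library was left out. Calls were lost for 6 of the 8 without P30 replicate 2 (adjusted p between 0.0623 and 0.161), 7 without P30 replicate 3 (0.0901 to 0.195), 3 without P7 replicate 1 (0.0514 to 0.073) and 4 without P7 replicate 2 (0.0601 to 0.176).

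The P30 libraries held a larger share of their counts in circRNAs of long span. Among position-named circRNAs, spans of 50 kb or more took 7.61% and 9.19% of the counts at P30, against 5.26% and 4.2% at P7. Spans of 10 to 50 kb took 49.9% and 48.1% at P30, against 41.2% and 40.8% at P7. Spans of 1 to 10 kb took 38.1% and 37.2% at P30, against 44.5% and 44.6% at P7, and spans under 1 kb took 4.4% and 5.55% at P30, against 9.05% and 10.4% at P7. In all 4 classes both P30 libraries lay on the same side of both P7 libraries. Neither these shares nor the spans of the listed circRNAs were taken at equal totals. Whether they shift with depth was not tested, so depth and age cannot be told apart here. The median span of the listed circRNAs was 12390 and 12240 bp in the P30 libraries, against 9278 and 8543 bp in the P7 libraries. CircRNAs listed at P30 alone had a median span of 12740 bp (2797 circRNAs), those listed at P7 alone 8272 bp (546) and those of both ages 10580 bp (709).

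**Figure D3:**
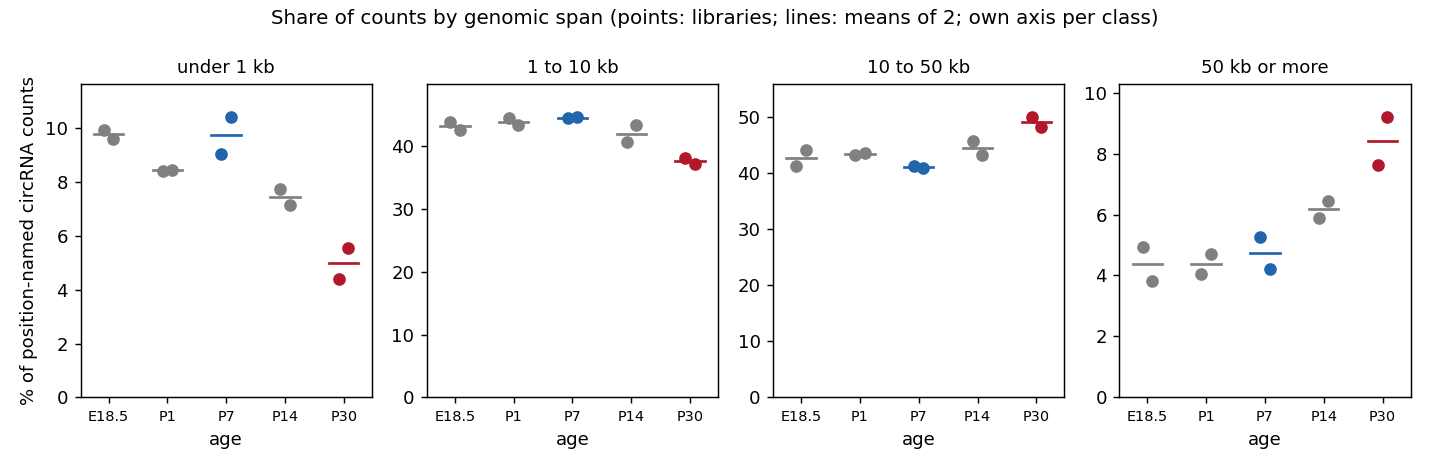
Share of the counts of position-named circRNAs (vertical axis, %) in 4 classes of span at the 5 ages, with a point for each library, a line at the mean of the 2 libraries and an axis of its own for each class. Spans under 1 kb took 4.4% and 5.55% at P30 (red), against 9.05% and 10.4% at P7 (blue), and spans of 50 kb or more took 7.61% and 9.19% at P30, against 5.26% and 4.2% at P7.

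Calls of position-named circRNAs differed in span in the same direction. Database IDs, which carry no span here, made up 21 of the 52 higher and 17 of the 23 lower calls. The 31 position-named circRNAs called higher had a median span of 15360 bp, the 6 called lower 1318 bp, and the 112 not called 7642 bp. Of all 149 position-named circRNAs tested, 31 (20.8%) were called higher and 6 (4.03%) lower. The calls were 8 higher and 1 lower among 65 circRNAs of 1 to 10 kb, 17 and 2 among 66 of 10 to 50 kb, and 4 and 0 among 7 of 50 kb or more. Besides those at chr15:68825482 and chr2:37436193, the 4 were a circRNA at chr1:190239557-190290219 on the plus strand, with 74 and 90 counts at P30, against 10 and 0 at P7 (log2 fold change 3.15, adjusted p = 0.0302), and a circRNA of 72040 bp on chromosome 18, with 31 and 42.5 counts at P30, against 0 and 4.5 at P7 (log2 fold change 3.15, adjusted p = 0.0356). Both P30 libraries were above both P7 libraries in each. Both of these calls were lost with the totals of the tested circRNAs as the scale (adjusted p = 0.0672 for the chr1 circRNA and 0.0779 for the one on chromosome 18). Both were also lost without P30 replicate 2 (0.218 and 0.208) and without P30 replicate 3 (0.273 and 0.309). The chr1 call was lost without P7 replicate 2 (0.225) and the chromosome 18 call without P7 replicate 1 (0.301). Each has a P7 library at 0, and the log2 fold change was 8.74 without P7 replicate 1 and 2.15 without P7 replicate 2 for the chr1 circRNA, and 1.91 and 7.58 for the one on chromosome 18.

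Of 11 tested circRNAs under 1 kb, 2 were called higher (18.2%, near the 20.8% of all position-named ones) and 3 lower (27.3%, against 4.03%). The lower ones were those at chr3:26032164 and chr9:49314958 and a circRNA of 579 bp at chr3:84707423-84708001 on the plus strand, which had 0 in both P30 libraries, against only 3.5 counts in each P7 library (adjusted p = 0.0388). Its counts had been higher before P7, with 16 and 13 at P1. The higher ones were a circRNA of 649 bp at chr14:52740148-52740796 on the plus strand, with 96 and 90.5 counts at P30, against 22.5 and 13 at P7 (log2 fold change 1.49, adjusted p = 0.028), and a circRNA of 379 bp at chr1:187090780-187091158 on the plus strand, with 38 and 53 counts at P30, against 4.5 and 0 at P7 (log2 fold change 3.56, adjusted p = 0.0264). The last 2 were not called with the totals of the tested circRNAs as the scale (adjusted p = 0.151 and 0.0738). Without P30 replicate 2 their adjusted p was 0.283 and 0.262, without P30 replicate 3 it was 0.243 and 0.441, and without P7 replicate 2 it was 0.272 and 0.222. Without P7 replicate 1 the chr14 circRNA had an adjusted p of 0.141, and the chr1 circRNA kept its call. The log2 fold change of the chr1 circRNA, at 0 in P7 replicate 2, was 7.89 without P7 replicate 1 and 2.60 without P7 replicate 2.

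Many circRNAs came in hubs, groups on 1 strand that are joined by a shared start or a shared end. The 4052 position-named circRNAs formed 664 hubs with 2003 circRNAs in all and up to 22 in a hub. Of these 2003, 1789 (89.3%) were listed at P30 and 640 (32%) at P7, close to the 87.2% and 35.4% of all included circRNAs. When counts were summed over each hub, 169 hubs could be tested, of which 36 (21.3%) were called, 33 (19.5%) higher and 3 (1.78%) lower at P30, and 61 had an unadjusted p under 0.05. Hub sums add circRNAs that were listed separately in each library with a minimum of 2 counts, so rare members drop out sooner from the P7 libraries with their smaller totals, and folds of the sums carry this difference. Of the 33 higher hubs, 19 were listed at P7 and rose by a log2 fold change of 0.63 to 6.21 (median 2.79), while 14 stood at 0 at P7. All 15 hubs of at least 10 circRNAs were tested, and 8 of them were called higher and none lower. The size of a hub was counted over these same 4 libraries, where most members were listed at P30. Choosing large hubs therefore favours higher calls, and the 8 are a description. With the totals of the tested circRNAs as the scale 17 hub sums were called higher and 4 lower. The hub calls rested on every library, and 2, 2, 2 and 1 of them were left without P30 replicate 2, P30 replicate 3, P7 replicate 1 and P7 replicate 2.

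The hub at chr4:102711837-102776009 on the minus strand summed to 532 and 595 counts at P30, against 15.5 and 11.5 at P7, with 15 circRNAs listed at P30 and 2 at P7 (log2 fold change 4.40, SE 0.53, adjusted p = 0.000697). It holds the circRNA at chr4:102732223-102745448 described above, which took 79.6% (95% exact Clopper-Pearson interval 76.0 to 83.0) and 82.8% (79.5 to 85.7) of the hub at P30, against 75% (47.6 to 92.7) and 58.3% (27.7 to 84.8) at P7. These intervals cover counting error only, and those of the P7 libraries are wide because they rest on 16 and 12 rounded counts. The next circRNA of the hub, at chr4:102720815-102745448 with the same end, had 66 and 64.5 counts at P30, against 3.5 and 5 at P7 (log2 fold change 2.88, SE 0.66, adjusted p = 0.0108), a call that was lost whichever of the 4 libraries was left out (adjusted p = 0.175 without P30 replicate 2, 0.142 without P30 replicate 3, 0.124 without P7 replicate 1 and 0.0934 without P7 replicate 2). The hub sum was called in every refit except the one without P7 replicate 2 (adjusted p = 0.0619).

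On the plus strand of chromosome 10, the hub at chr10:25161379-25232887 summed to 441.5 and 376 counts at P30, against 34 and 18.5 at P7 (log2 fold change 3.07, SE 0.30, adjusted p = 0.000211). All 14 of its circRNAs were listed at P30 and 5 at P7. Its most counted circRNA, at chr10:25161379-25163760, had 244.5 and 209.5 counts at P30, against 27.5 and 11.5 at P7 (log2 fold change 2.60, SE 0.33, adjusted p = 0.000133). A longer circRNA with the same start, at chr10:25161379-25180702, had 52 and 56 counts at P30, against 4.5 and 0 at P7 (log2 fold change 3.80, SE 0.88, adjusted p = 0.0111), and was not called without P30 replicate 2 (adjusted p = 0.14), P30 replicate 3 (0.142) or P7 replicate 2 (0.0998). Its log2 fold change was 8.14 without P7 replicate 1 and 2.85 without P7 replicate 2. The hub sum kept its call in all 9 refits.

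The hub with the most circRNAs lay at chr15:39268543-39448056 on the plus strand, with 22 circRNAs, all listed at P30 and 1 at P7. It summed to 136.5 and 169.5 counts at P30, against 2.5 and 0 at P7 (log2 fold change 6.21, SE 1.18, adjusted p = 0.0152). With 1 member listed in 1 P7 library, the log2 fold change ran between 4.98 and 9.63 over the refits, with 9.63 without P7 replicate 1 and 5.31 without P7 replicate 2. Most of its circRNAs were rare, and the leading one, at chr15:39398489, took 34.3% and 40.2% of the hub in the P30 libraries. At chr5:151379215-151411015 on the minus strand, a hub of 3 circRNAs summed to 195 and 198.5 counts at P30, against 18 and 12.5 at P7 (log2 fold change 2.79, SE 0.57, adjusted p = 0.017). Nearly all of it was the circRNA at chr5:151406752-151411015, with 195 and 191.5 counts at P30, against 18 and 12.5 at P7 (log2 fold change 2.76, SE 0.42, adjusted p = 0.000522). The calls of both hub sums were lost whichever library was left out, at adjusted p for the chr15 hub of 0.0708 without P30 replicate 2, 0.0651 without P30 replicate 3, 0.0973 without P7 replicate 1 and 0.0963 without P7 replicate 2, and for the chr5 hub of 0.15, 0.147, 0.0973 and 0.101 in the same order.

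**Figure D4:**
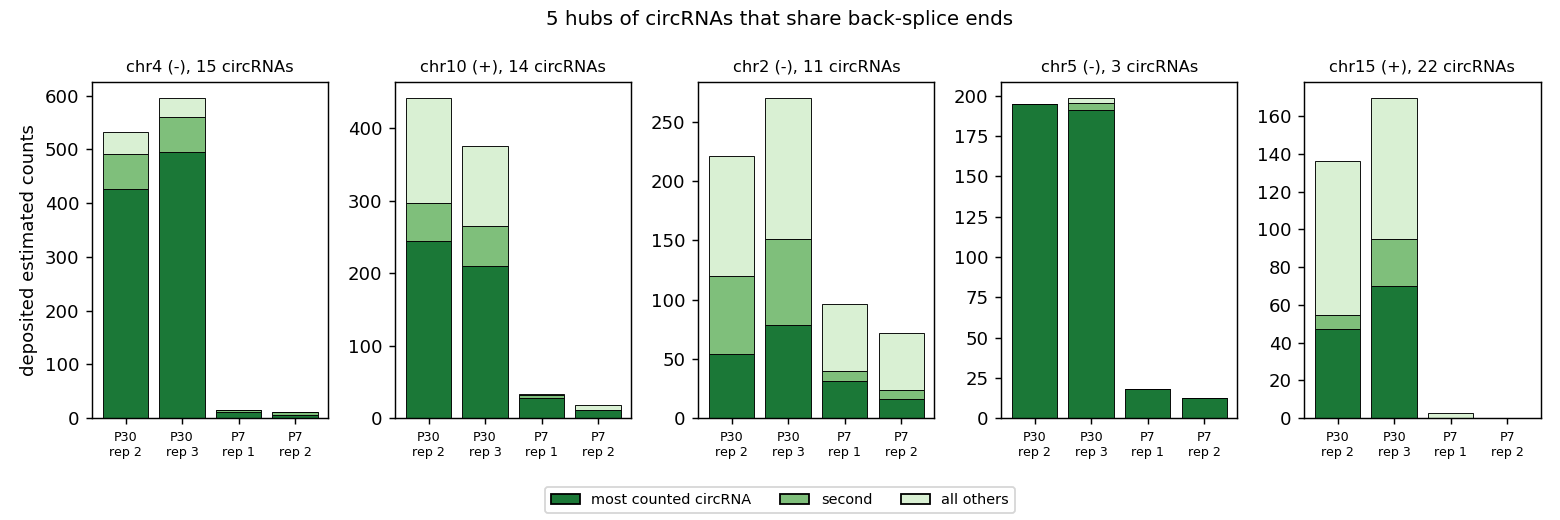
Deposited estimated counts (vertical axis, an own scale per panel) summed over 5 hubs in P30 replicates 2 and 3 and P7 replicates 1 and 2, split into the most counted circRNA, the second and all others. The chr4 hub sums to 532 and 595 counts at P30, against 15.5 and 11.5 at P7, most of it a single circRNA, whereas the chr15 hub, with 136.5 and 169.5 at P30, is spread over 22 circRNAs.

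The hub at chr2:37436193-37502805 on the minus strand held called and uncalled circRNAs. It summed to 221.5 and 270 counts at P30, against 96 and 71.5 at P7 (log2 fold change 0.63, SE 0.19, adjusted p = 0.0421), a call that was lost in all 9 refits, those without P30 replicate 2 (adjusted p = 0.256), P30 replicate 3 (0.486), P7 replicate 1 (0.298) and P7 replicate 2 (0.338) included. Its longest circRNA, at chr2:37436193-37502805 with 66613 bp, had 66 and 73 counts at P30, against 9 and 8 at P7 (log2 fold change 2.09, SE 0.49, adjusted p = 0.0108). The circRNA at chr2:37496371-37502805, which shares its end, had 43 and 45 counts at P30, against 24 and 30 at P7 (log2 fold change -0.25, SE 0.39, adjusted p = 0.669). The longest one was not called without P30 replicate 2 (adjusted p = 0.0862), P30 replicate 3 (0.113), P7 replicate 1 (0.114) or P7 replicate 2 (0.0936). Whether circRNAs of a hub changed by another factor than the rest of their hub was tested for 30 circRNAs of 12 hubs with edgeR's diffSpliceDGE. None (0%) was called, the smallest adjusted p was 0.296, and 3 had an unadjusted p under 0.05, namely these 2 circRNAs of the chr2 hub and the one at chr10:25198815.

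The 3 hub sums called lower were also looked at after their values were seen. The hub at chr4:8678471-8733508 on the plus strand, which holds both falling chr4 circRNAs, summed to 60 and 53 counts at P30, against 92.5 and 62 at P7 (log2 fold change -1.36, SE 0.27, adjusted p = 0.017). It had been at 101.5 and 95.5 counts at E18.5 and at 84 and 99 at P1, in libraries with smaller totals than those of P30. The hub at chr5:23485306-23505837 on the minus strand summed to 12 and 10.5 counts at P30, against 17 and 25 at P7 (log2 fold change -1.89, adjusted p = 0.0396), and the hub at chr8:108602504-108607873 on the plus strand to 0 and 4 counts at P30, against 14.5 and 10 at P7 (log2 fold change -3.38, adjusted p = 0.0376). For all 3 the P30 libraries lay below the P7 libraries. The log2 fold change of the chr8 hub was -2.56 without P30 replicate 2 and -6.84 without P30 replicate 3. None of the 3 kept its call when any of the 4 libraries was left out, with adjusted p for the chr4, chr5 and chr8 hubs of 0.09, 0.227 and 0.279 without P30 replicate 2, 0.122, 0.272 and 0.0651 without P30 replicate 3, 0.0973, 0.0973 and 0.132 without P7 replicate 1, and 0.0792, 0.199 and 0.117 without P7 replicate 2.

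The called circRNAs were also followed at the other ages. The median CPM of the 52 circRNAs called higher at P30 was 380.6 at E18.5, 846.8 at P1, 881.9 at P7, 3523 at P14 and 6435 at P30. For the 23 called lower it was 4152 at E18.5, 4391 at P1, 3974 at P7, 1735 at P14 and 810.5 at P30, and over all 327 tested it was 1486, 1653, 1636, 2103 and 2205. The P7 and P30 values are the ones that chose the circRNAs, so the step between them is a description. The P14 mean lay between those of P7 and P30 for 43 of the 52 higher (82.7%) and 22 of the 23 lower circRNAs (95.7%), against 57.2% of all tested, a count that a wide gap between P7 and P30 favours. P14 and P1 were not part of the contrast, but the low-count filter drew on all ages. Lower circRNAs could enter the test through counts at E18.5 or P1. The one at chr3:84707423 did so, with 3.5 counts in each P7 library and 16 and 13 at P1. Such entry favours high E18.5 and P1 values among the lower circRNAs. Higher circRNAs could enter through P14 in the same way. The one at chr10:25198815 was below the limit in P30 replicate 3 (23.5 counts, limit 30.5). It was above the limit in both P14 libraries (14 and 23.5 counts, limits 12.6 and 18.1). Entry through P14 favours high P14 values among the higher circRNAs, so the shares of both sets below are descriptions. Both P14 libraries were above both P1 libraries for 38 of the 52 higher circRNAs (73.1%), against 34.9% of all tested, and below them for 21 of the 23 lower ones (91.3%), against 31.2% of all tested. The mean was highest at P14 for 6 of the higher circRNAs (11.5%, against 18% of all tested), mmu_circ_0001878 and those at chr2:25821183 and chr10:25198815 among them. Of the 23 lower circRNAs, 19 (82.6%) had their highest mean at E18.5 or P1, against 39.1% of all tested, and the choice of circRNAs lower at P30 keeps the highest mean from falling there.

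**Figure D5:**
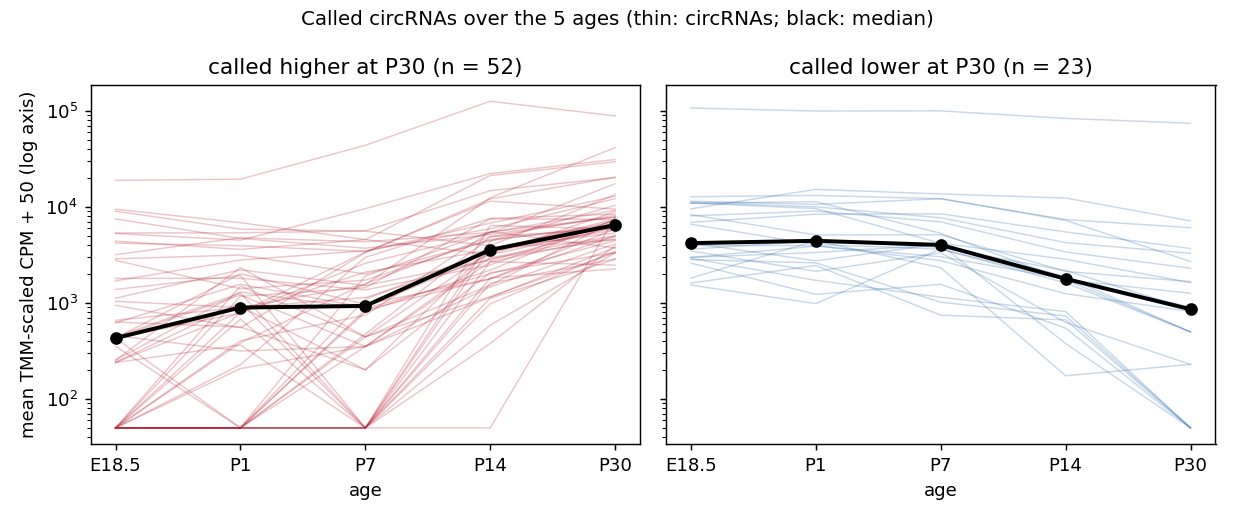
Mean TMM-scaled CPM plus 50 (vertical log axis) at the 5 ages for the 52 circRNAs called higher (left) and the 23 called lower at P30 (right), a thin line for each circRNA and a black line for the median. The median CPM of the higher circRNAs is 881.9 at P7, 3523 at P14 and 6435 at P30, and that of the lower ones is 3974, 1735 and 810.5.

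As a share of all counts, the 52 higher circRNAs took 21% and 20.5% at P30, against 8.94% and 8.28% at P7, and at P14 they took 19.4% and 17.1%. The 23 lower circRNAs took 4.42% and 4.04% at P30, against 13.8% and 15% at P7. In such bulk libraries a shift in the number of cells of a type and a shift in circRNA per cell cannot be told apart.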

How the data were processed

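The authors deposited estimated counts of back-spliced reads per circRNA, not normalized, with 1 column per library. Values came in steps of 0.5. Trimmomatic and mm9 are named in the submitters' processing notes, whereas the circRNA caller, the aligner and the reason for the steps and for the minimum of 2 are not given in the sources used. Since the available annotation was GRCm38, positions were left as deposited and no gene or sequence was assigned. Spans equalled an exon-to-exon length for 98.85% of 2438 circRNAs when starts were counted from 0. Lengths 1 or 2 bp longer or shorter matched for 94.13% to 94.63%, and starts are printed counted from 1. One E18.5 column, whose number matches no label, entered as an unnumbered E18.5 replicate.

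After rounding, edgeR 4.0.16 under R 4.3.3 was run on all 10 libraries with 1 level per age (5 residual degrees of freedom): filterByExpr with a minimum count of 10 and a minimum total of 15, TMM factors (0.788 to 1.17), glmQLFit and glmQLFTest, at a common dispersion of 0.125. Hub sums used the same library sizes and factors. Each SE is the absolute log2 fold change divided by the square root of the F statistic of its test. It was not estimated separately. The fit was also run on simulated counts with known changes and a fixed dispersion of 0.125, and the outcome is not given here. P30 replicates differed by 2.51 times and P7 replicates by 2.58 times the sampling noise (chi-square per degree of freedom), so none was a repeated deposit. Other tools were DESeq2 1.42.0, matplotlib 3.10.9, pandas 2.3.3, scipy 1.17.1 and numpy 2.4.6 in Python 3.11.15.

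CircRNAs were named by rule as the 10 largest called rises and falls with a mean of at least 10 counts and no overlap between the ages, the 10 most abundant circRNAs, and the members of the 5 most counted hubs called. Because database IDs are paired with no gene, 4 are printed, per direction the most abundant of those named and the one of the largest change, a choice made after the values were seen. Printed circRNAs outside the rule are those called with spans under 1 kb or of at least 50 kb, those of the hubs called lower, and rises listed at P7 with an adjusted p under 0.01. The comparison and its lists were chosen with earlier results of these data known. Alternatives were other scalings, filters, sample sets and tools, a replicate block, a fold threshold and each library left out. Chosen after the data were seen were the leave-one-out and block fits with the first filter kept, the removal of circRNAs at 0 in 1 library and at 10 or more in the other, thinning to 6569 counts per library, and the limit of 33.3 counts at P30.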

Additional observations from a re-analysis of the deposited data

How the results depend on the processing

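The number of circRNAs called, 75, was 49 with no low-count filter, 124 with a filter of 10 counts in each library of at least 1 age, 113 with P7 and P30 fitted alone, 37 with a log2 fold threshold of 1, and 41 (21 higher and 20 lower) after thinning. It stayed within 1.5 times under the 3 other scalings (60 to 73), with unrounded values (72), with DESeq2 (75), with P7 and P30 alone under the first filter (109) and without circRNAs at 0 in 1 library and at 10 or more in the other (95), a setting chosen after seeing the data. Leaving out 1 library gave 15 to 37 calls, or 28, 15, 41 and 38 with the first filter kept (without P30 replicates 2 and 3 and P7 replicates 1 and 2, in this order). The labels share only number 2 between P7 and P30, and P1 and P7 replicate differences had r = 0.0144 over 327 circRNAs, so the numbers were not taken as pairs. With a replicate block 9 calls were left, or 1 with the first filter kept, and 15 hub sums. Hub sums called, 36, numbered 21 with totals as the scale, 71 with P7 and P30 alone, 15 after thinning, and 1 to 2 with a library left out. No circRNA was called for its share of a hub under any alternative run. The ratio of circRNAs listed, 2.53, was 1.23 at equal totals, 3.13 at a minimum of 10 counts, and 2.3 to 2.8 with a library left out. The ratio of the database ID share, 0.764 by counts, was 0.617 by listed circRNAs, 0.752 without the 10 most abundant and 0.759 to 0.77 with a library left out. The ratios for spans under 1 kb (0.512) and of 50 kb or more (1.78) moved by less than the replicate spread under every alternative, and with a library left out they were 0.452 to 0.571 and 1.6 to 2.0. No alternative for the span ratios or the database ID share had equal totals. The alternatives gave 876 values of 37 printed circRNAs and 8 hub sums. Of these values, 575 kept their direction and their status as called or uncalled, 297 lost the call and 4 reversed. The 575 include 21, 21 and 20 values of chr2:37479693, chr2:37490944 and chr2:37496371, which were not called under any setting. The reversed ones concern uncalled circRNAs of the chr2 hub: -0.23 for chr2:37479693-37502805 and -0.30 for chr2:37490944-37502805 with the totals of all listed counts, and 0.0049 for chr2:37496371-37502805 without P7 replicate 2 (-0.70 to 0.0049 over the 4 libraries left out), or 0.13 with the first filter kept. Causes were not tested. Depth limits what could be tested: of 4444 circRNAs not tested, 2932 were listed in 1 library only.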

Other observations

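Chromosomes differed in their share of the counts of position-named circRNAs. Chromosome 15 took 4.48% and 4.75% at P30, against 2.42% and 2.74% at P7, the largest ratio of any placed autosome (1.79). Chromosome 19 took 3.34% and 3.41% at P30, against 2.21% and 2.66% at P7. Chromosome 16 took 2.19% and 2.29% at P30, against 4% and 2.76% at P7, and chromosome 9 took 4.44% and 5% at P30, against 5.52% and 7.29% at P7. These 4 had the largest ratios of autosomes in either direction, and chromosome X took 2.97% and 3.14% at P30, against 1.71% and 2.64% at P7 (ratio 1.4). The libraries of the ages did not overlap for 12 of 21 placed chromosomes, these 5 among them. The hub at chr15:39268543-39448056 alone gave 136.5 of 740 and 169.5 of 808 counts of chromosome 15 at P30, against 2.5 of 108.5 and 0 of 94.5 at P7. Another hub of chromosome 15, at chr15:68825482-68879891 on the plus strand, gave 142.5 and 150 counts at P30, against 2.5 and 0 at P7. On chromosome Y, 6 circRNAs summed to 37 counts in P30 replicate 3, with 0 in P30 replicate 2 and in both P7 libraries, and the labels give no sex.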
